A study of Mus musculus with 4 samples.

Results

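The RNA of the mitochondrial genome is described here as it appears in a map of RNA bound by DHX9, a helicase that opens paired RNA strands. All peaks on the mitochondrial chromosome were taken, and each was set by its strand against the 37 mitochondrial genes, the control region and the peaks of the other strand. There were 52 such peaks among 43106 in the list (0.121%), 22 of them on the plus strand and the other 30 on the minus strand. The cells were neural progenitor cells derived from the male mouse embryonic stem cell line WT26 (C57BL/6x129sV), untreated and kept in medium with EGF and FGF2. Binding was mapped by FLASH, a crosslinking and immunoprecipitation method that keeps the strand of the RNA. There were 2 libraries with a rabbit antibody to DHX9 and 2 with rabbit IgG, replicates A and B of each, and both groups came from the same unmodified line. The data used here were 1 peak list for the 4 libraries, without a score, count or depth for any peak or library. No value per sample, replicate error or test could therefore be given, and every number below is a description of that list. A base or gene without a peak had no called peak, which does not show that it was not bound, and how much of each RNA the cells made was not measured. Of 6 neural progenitor markers, Slc1a3 (122 peaks), Fabp7 (4) and Vim (1) carried a peak, and Nes, Sox2 and Pax6 carried 0; of all nuclear protein-coding genes, 18.9% carried a peak.

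Mammalian mitochondria transcribe both strands of their small circular genome into long precursors that start in the control region, the main noncoding stretch. On the plus strand the precursor holds both ribosomal RNAs, most transfer RNAs and all but one of the protein-coding RNAs. The minus-strand precursor holds ND6 and a few transfer RNAs, and the rest of it is antisense to plus-strand genes. Transfer RNAs lie between the other genes, and cutting them out frees the neighbouring RNAs. Antisense RNA is normally degraded by the helicase SUPV3L1 with the nuclease PNPT1, and the 2 complementary strands can pair into double-stranded RNA. Of the 37 mitochondrial genes, 28 are coded on the plus strand, and ND6 and 8 tRNA genes on the minus strand.

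Peaks covered the mitochondrial genome to a nearly equal extent on its strands, 42.3% of the plus strand and 42.1% of the minus strand. At least 1 strand was covered at 58.6% of the positions. Shares were counted to base 16298, the last base under a peak. Of these 16298 positions, 2692 were covered on the plus strand alone, 2661 on the minus strand alone, 4196 on both and 6749 on neither. The bases covered on both strands made up 60.9% of the plus-strand coverage and 61.2% of the minus-strand coverage. They fell into 30 stretches, the longest of which had 387 bases in ND4 (bases 10864 to 11250). All positions are 1-based, in the mouse build mm10.

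**Figure D1:**
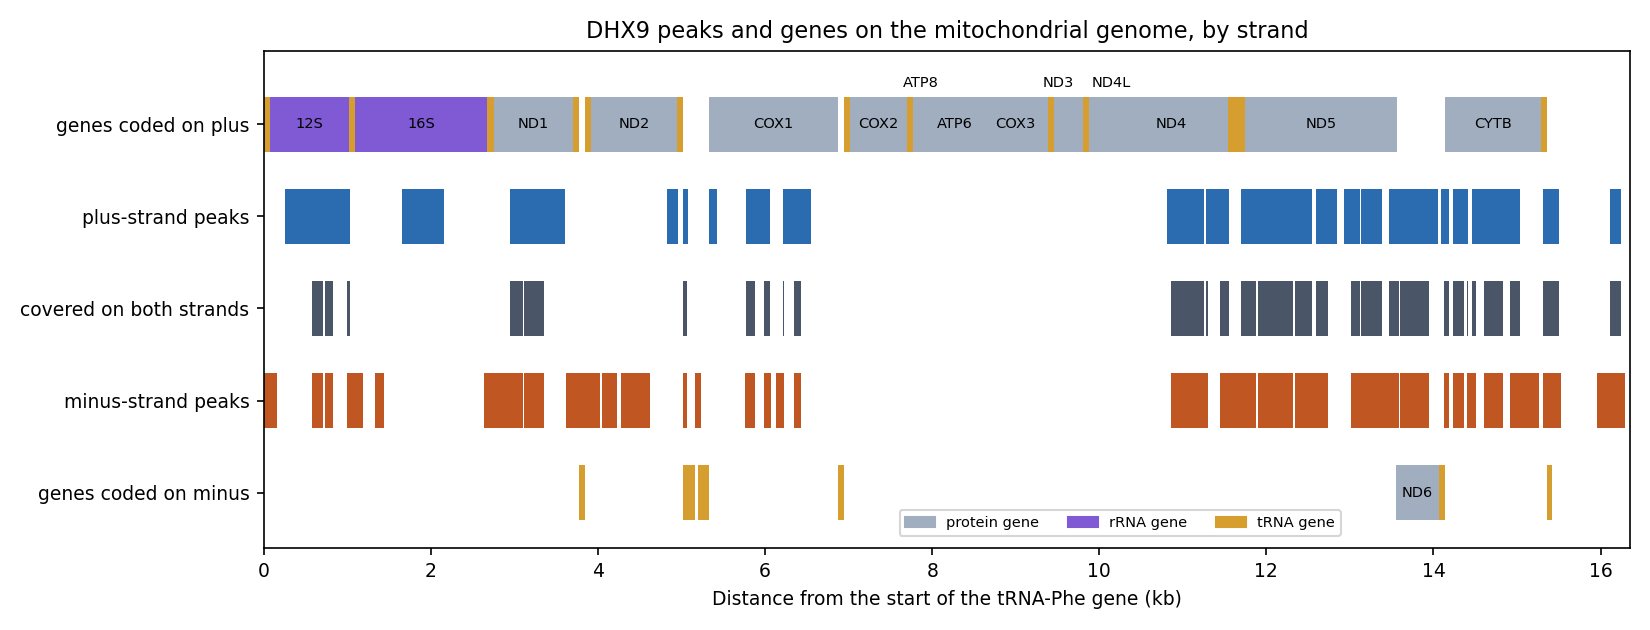
Map of the mitochondrial genome with genes (outer rows), peaks (bars in the rows next to them) and stretches covered on both strands (middle row); the horizontal axis is the distance in kb from the start of the tRNA-Phe gene. The 22 plus-strand and 30 minus-strand peaks cover both sides of a stretch of 4253 bases with no peak on either strand.

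The ribosomal RNA genes carried more coding-strand than antisense coverage. For mt-Rnr1, which encodes the RNA of the small ribosomal subunit (bases 70 to 1024), a single plus-strand peak from 248 to 1028 covered 81.4% of the gene. This peak, with 781 bases, was the longest on the mitochondrial genome. On the minus strand, 4 peaks covered 36.2% of mt-Rnr1. For mt-Rnr2, the RNA of the large subunit (1094 to 2675), the plus-strand peak from 1654 to 2154 covered 31.7%. Antisense to mt-Rnr2, 3 peaks covered 15.2%, and none of its bases was covered on both strands. Over both genes together the coding strand was covered at 50.4% and the opposite strand at 23.1%.

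Complex I, the NADH dehydrogenase of the respiratory chain, has 7 subunits coded here, and 5 of their genes carried peaks, each on both strands. Over whole gene spans, ND5 was the most completely covered protein gene on its coding strand. Its span (11742 to 13565) was touched by 6 plus-strand peaks covering 87.3% and by 4 minus-strand peaks covering 82.6%. Both strands together lay over 74.3% of ND5. The minus-strand peaks in ND5 were long, with 418 bases from 11904 to 12321, 398 from 12342 to 12739 and 581 from 13013 to 13593.

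ND6, the one protein gene coded on the minus strand (13552 to 14070), was covered at 76.3% on that strand. The plus strand, which is antisense to ND6, was covered at 97.9%, all of it by the peak from 13470 to 14059. Every base of the coding-strand coverage of ND6 was also covered on the other strand. Both strands of ND6 were thus covered, although its coding strand is the antisense strand of most other genes.

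ND1 (2751 to 3707) had similar coverage on its strands, 68.0% coding from 1 peak and 70.7% antisense from 4 peaks. ND2 (3914 to 4951) was mostly antisense. The coding strand of ND2 was covered at 11.9%, by the peak from 4828 to 4959 at the gene's end. Its opposite strand was covered at 61.2% by 3 peaks, and no base of ND2 was covered on both. ND4 (10167 to 11544) began in the stretch without peaks. Over its whole span, 51.6% lay under plus-strand peaks and 38.7% under minus-strand peaks. Of its 739 bases outside that stretch, the shares were 96.2% and 72.1%.

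CYTB, the cytochrome b of complex III (14145 to 15288), had 3 plus-strand peaks over 70.4% of its span and 5 minus-strand peaks over 74.3%. The antisense peaks were spread along the gene, and the whole of those from 14239 to 14364 and from 14611 to 14829 was also covered on the plus strand. COX1, the catalytic subunit of cytochrome c oxidase (complex IV; 5328 to 6872), had 4 peaks on each strand. The plus-strand peaks covered 46.4% of COX1 and the minus-strand peaks 24.1%. Of the 1225 COX1 bases outside the stretch without peaks, the shares were 58.5% and 30.4%. One of the plus-strand peaks started at base 5327, 1 base before the COX1 gene. The peaks antisense to COX1 were short, with 113, 80, 97 and 83 bases.

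Summed over the 6 plus-coded protein genes with a peak, 58.3% of the bases were covered on the coding strand and 58.0% on the opposite strand. The opposite strand was covered more in 3 of these genes (ND1, ND2, CYTB) and the coding strand in 3 (COX1, ND4, ND5). With ND6 added, 7 of 13 protein genes had at least 1 base under a peak of each strand, and the other 6 had none on either. Beside this, 18.4% of 17491 nuclear protein-coding genes of known strand had a base under a coding-strand peak, 0.766% under an opposite-strand peak and 0.292% under both. Those nuclear spans include introns and differ in length and expression from the mitochondrial genes.

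The tRNA genes did not share the even balance that the protein genes had in sum. Single protein genes were uneven too, as ND2, with 11.9% coding and 61.2% opposite, and COX1, with 46.4% and 24.1%. Of the 22 tRNA genes, 17 lay outside the stretch without peaks. Among the 10 of these coded on the plus strand, 86.9% of the bases were covered on the antisense strand and 16.2% on the coding strand. The 8 genes TrnF, TrnV, TrnL1, TrnI, TrnM, TrnH, TrnS2 and TrnL2, lay wholly under minus-strand peaks, although they are coded on the plus strand. TrnF, TrnL1, TrnI, TrnM and TrnS2 had 0 bases covered on their own strand, and TrnV had 4 of 69. TrnL2 (39 of 71 bases) and TrnT (45 of 67) had the most coding-strand coverage of the 10. The exceptions to whole antisense coverage were TrnW, with 2 of 67 bases, and TrnT, with 43 of 67.

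These genes are short neighbours and do not count as separate observations. The minus-strand peak from 11449 to 11878 ran across TrnH, TrnS2 and TrnL2 at once and also reached ND4 and ND5. The minus-strand peak from 3617 to 4017 ran across TrnI, TrnQ and TrnM together with parts of ND1 and ND2. The reach of plus-strand peaks into these tRNA genes varied. The peak from 11703 to 11973, mostly in ND5, covered 39 of the 71 bases of TrnL2. The peak over mt-Rnr1 ended 4 bases into TrnV, the peak at the end of ND4 covered 9 bases of TrnH, and the peak over ND1 stopped at base 3602, before TrnI at 3706.

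Of the bases in the 7 minus-coded tRNA genes outside the empty stretch, 50.4% were covered on the coding strand. The opposite strand was covered at 37.3%. As in the plus-coded tRNA genes, the minus strand was thus covered more. TrnQ (3772 to 3842) was wholly covered on its coding strand and not at all on the other. TrnP (15356 to 15422), beside the control region, was wholly covered on both strands. TrnA (5018 to 5086) was covered at 63.8% on the coding strand and 91.3% on the opposite strand, by a pair of short peaks from 5015 to 5061 and from 5014 to 5080. TrnE had 18 of 69 bases covered on its coding strand and 49 on the other. TrnC had 38 of 66 and TrnN 4 of 71, both on the coding strand alone, while TrnY had none on either strand. The coding strand was thus covered more in 3 of the 7 (TrnQ, TrnN and TrnC) and the opposite strand in 2 (TrnA and TrnE).

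**Figure D2:**
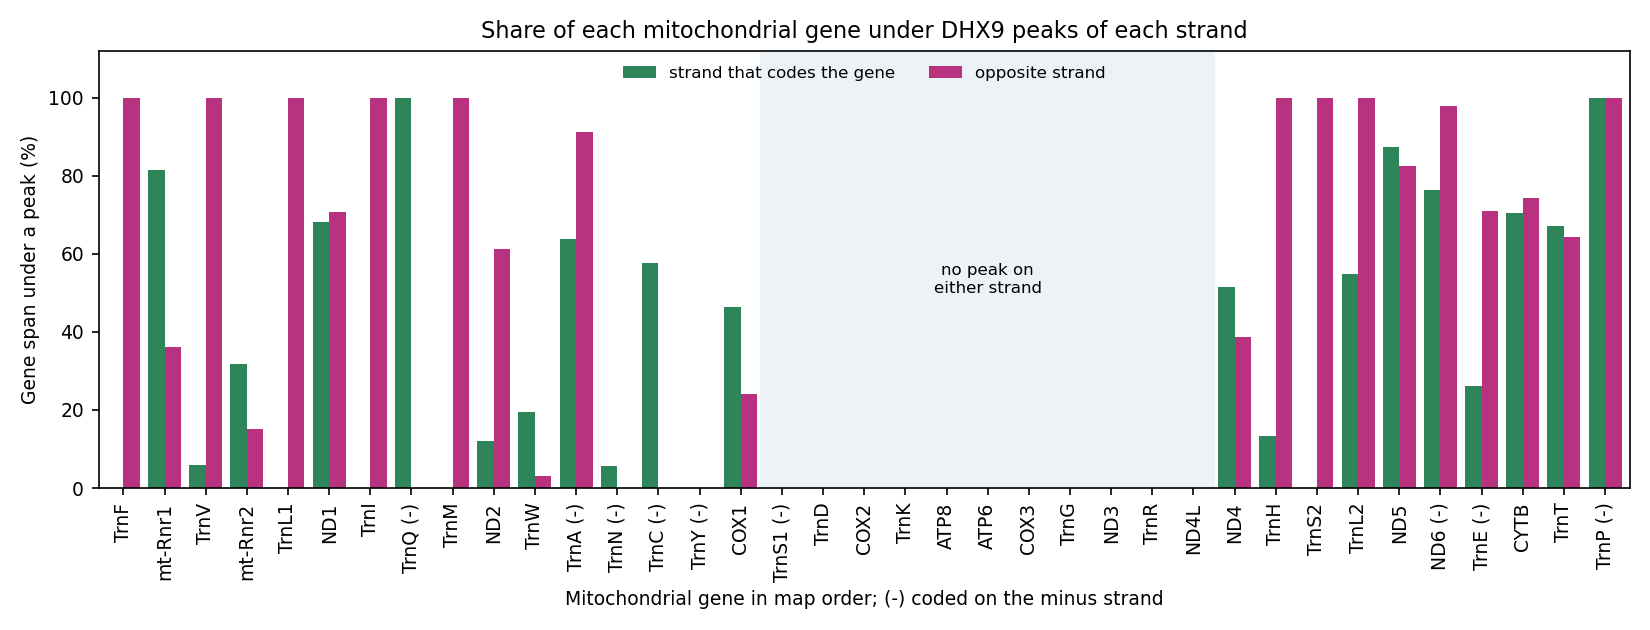
Share of each mitochondrial gene's span, in percent, under peaks of its coding strand (green) and of the opposite strand (pink), in map order; the shaded genes lie in the stretch without peaks. Plus-coded tRNA genes such as TrnF, TrnL1 and TrnI reach 100% on the opposite strand at 0% on the coding strand, while ND5 and CYTB are high on both.

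The space of 32 bases between TrnN and TrnC (5160 to 5191) is where replication of the light strand begins in mammals. It lay wholly under the minus-strand peak from 5156 to 5229 and under no plus-strand peak. The cluster of 4 minus-coded tRNA genes around it, TrnA to TrnY, was covered at 38.2% on the minus strand and 20.4% on the plus strand.

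The control region holds the promoters of both strands and the start of heavy-strand replication. From base 15423 to base 16298 it was covered at 50.7% on the minus strand and 25.2% on the plus strand. The plus-strand coverage was 221 bases, or 86 without peaks shorter than the list median of 153 bases and 146 with peaks trimmed by 25 bases at both ends. On the minus strand the values were 444, 444 and 369 bases. All 221 plus-strand bases were also covered on the minus strand. They came from the end of the peak from 15311 to 15508, which began in TrnT, and from the peak from 16111 to 16245. The minus-strand peak from 15964 to 16298 contained the latter whole. The longest stretch without a peak in the control region was the 432 bases from 15532 to 15963. The genome is a circle that the reference opens at TrnF, and minus-strand peaks lay on both sides of the opening. Besides the peak that ended at 16298, another ran from base 1 to base 157, over TrnF and the start of mt-Rnr1. Together they hold 492 bases, and how the peak caller treated the joined ends was not given in the sources used here.

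Most single peaks overlapped a peak of the opposite strand. Outside the long stretch without peaks, plus-strand peaks covered 57.2% of the bases and minus-strand peaks 56.9%, with 34.8% under both. Strands covered this densely overlap in part even if their peaks are placed independently. Whether the overlap exceeded what such placement gives was not tested. Of the 22 plus-strand peaks, 19 shared at least 1 base with a minus-strand peak, and of the 30 minus-strand peaks, 23 shared at least 1 base with a plus-strand peak. The median peak had 69.5% of its bases covered on the other strand as well. For 35 of 52 peaks this share was at least 50%, and 11 lay wholly within the coverage of the other strand, 8 of them minus-strand peaks. The overlaps formed 31 pairs of peaks, with 12 to 387 shared bases and a median of 124.

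The paired peaks were not copies of each other with the strand exchanged. In 3 of the 31 pairs the starts lay within 10 bases of each other, in 2 the ends did, and in 0 both did. By the summed distance of starts and ends, the closest was the pair of short peaks at TrnA, with 20 bases. Next were a pair in COX1, with 23, and the pair over TrnP and TrnT (15311 to 15508 and 15313 to 15531), with 25. Others were staggered, as in ND5, where plus-strand peaks from 11978 to 12546 and from 12593 to 12847 both overlapped the minus-strand peak from 12342 to 12739. The 10 peaks without an opposite partner were 3 on the plus strand (in mt-Rnr2, in ND2 with TrnW, and in COX1) and 7 on the minus strand. These 7 lay over TrnF and mt-Rnr1, in mt-Rnr2, over TrnL1, around TrnQ, at 2 places in ND2 and between TrnN and TrnC.

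**Figure D3:**
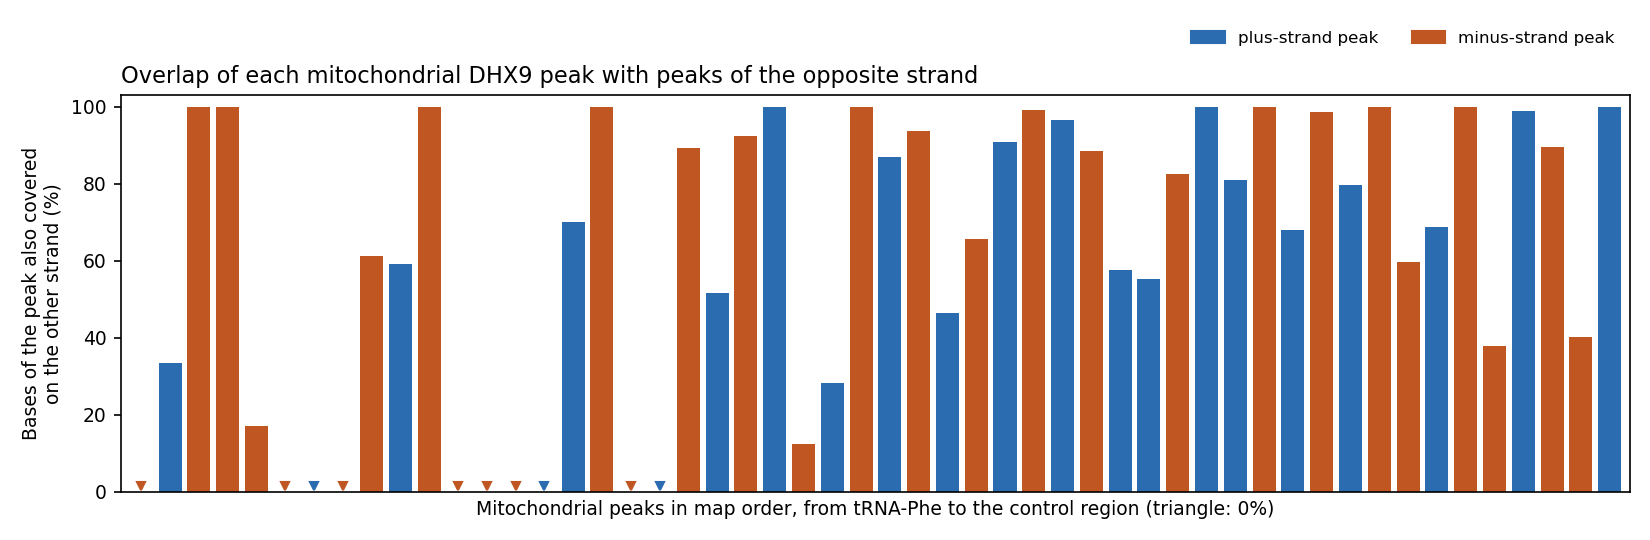
Share of each peak's bases, in percent, that is also covered on the other strand, for the 52 mitochondrial peaks in map order (blue, plus strand; orange, minus strand; triangles, 0%). The 10 peaks at 0% all lie in the part of the map before the empty stretch, and 35 peaks reach at least 50%.

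Nearly every plus-strand peak lay over a gene of its own strand, while most minus-strand peaks were antisense to genes. A gene coded on the same strand was touched by 21 of the 22 plus-strand peaks, the exception being the peak in the control region. On the minus strand, 7 of 30 peaks touched a gene of their own strand. Another 22 touched genes of the plus strand alone, and 1 lay in the control region. Where the genes lie sets much of this contrast, because the plus strand codes most of the bases in genes. Of genes not wholly in the stretch without peaks, those coded on the minus strand were ND6 (519 bases) and 7 tRNA genes (480 bases together). Those coded on the plus strand were 6 protein genes (7886 bases), 2 rRNA genes (2537) and 10 tRNA genes (681).

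Coverage of both strands differed along the genome. From ND4 to TrnP (10167 to 15422), 57.3% of the bases were covered on both strands, with plus-strand coverage at 72.6% and minus-strand coverage at 68.5%. From TrnF to mt-Rnr2, 9.79% were covered on both, with plus-strand coverage at 47.9% and minus-strand coverage at 27.1%. From TrnL1 to TrnW, which holds ND1 and ND2, the minus strand was covered more than the plus strand (68.1% and 33.6%), with 16.5% covered on both.

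Between bases 6553 and 10805 there was no peak on either strand. These 4253 bases make up 26.1% of the span, and the next longest stretch without a peak had 482 bases (2155 to 2636, in mt-Rnr2). It held 11 whole genes, COX2 and COX3 of complex IV, ATP6 and ATP8 of the ATP synthase, ND3 and ND4L of complex I, and the tRNA genes TrnS1, TrnD, TrnK, TrnG and TrnR. It also held the last 320 bases of COX1 and the first 639 of ND4. Coverage stopped and resumed on the strands at nearby places, with the plus strand ending at 6552 and starting again at 10806, and the minus strand ending at 6426 and starting again at 10864. Outside this stretch, 79.3% of the bases were covered on at least 1 strand and 34.8% on both.

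The nuclear genome carries copies of mitochondrial DNA, and the reference table names 2 pseudogenes on chromosome 1 that bear on this stretch. Gm10925, which has mt-Atp6 among its older names (24613971 to 24614651), spans 681 bases, as ATP6 does. Gm10222 (24612404 to 24612700) spans 297 bases, as ND4L does. The ends of these pseudogenes lie 1951 bases apart, and the starts of ATP6 and ND4L lie 1950 bases apart. Neither pseudogene had a peak, and the nearest peak on chromosome 1 was 559.4 kb from Gm10222. How reads matching more than 1 place were handled was not given in the sources used here, and the part of such reads in the empty stretch was not tested.

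Positions covered on both strands were more frequent on the mitochondrial genome than on each of the nuclear chromosomes. On the mitochondrial genome, 43.9% of the bases covered on either strand were covered on both. On the 21 nuclear chromosomes together it was 0.0203%, or 1511 of 7437550 bases. The highest nuclear share was 0.139%, on chromosome 3, and 13 nuclear chromosomes had no base covered on both strands. There were 22 overlapping pairs of opposite strand among 43048 nuclear peaks, fewer than the 31 among the 52 mitochondrial peaks. Coverage was also far denser on the mitochondrial genome, with 585.9 bases per kb covered on at least 1 strand. The densest nuclear chromosome, 11, had 6.86 per kb, counted to the end of its last gene. Neither the shares nor the numbers of pairs were adjusted for this density. The mitochondrial genome is 1 molecule with 1 share, so no test of this difference in shares was made.

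**Figure D4:**
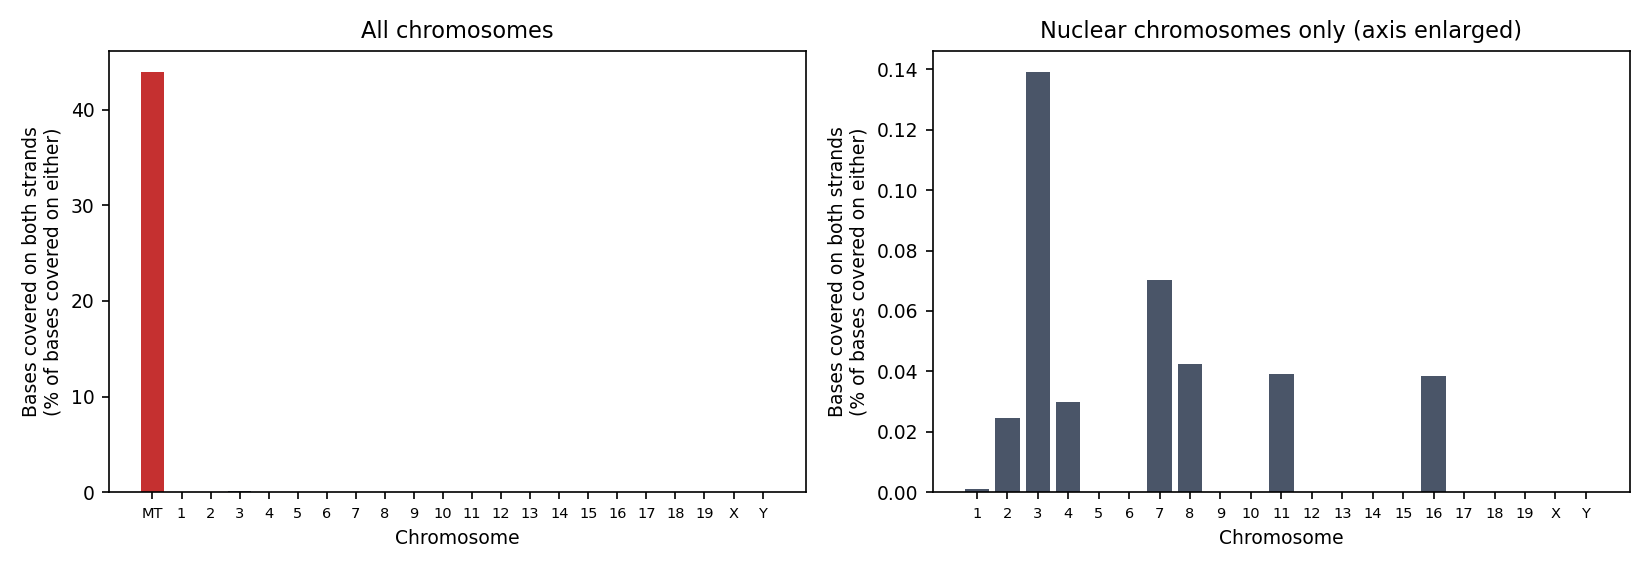
Bases covered on both strands as a percentage of bases covered on either strand, for each chromosome (left) and for the nuclear chromosomes on an enlarged axis (right). The mitochondrial chromosome (MT) is at 43.9%, and the highest nuclear chromosome, 3, is at 0.139%.

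Dense coverage was also found on nuclear chromosomes, with few bases covered on both strands. The nuclear chromosomes were divided into windows of 16298 bases, of which 8768 had a peak, with a median of 2 peaks. In 12 of these windows at least as many bases were covered as on the mitochondrial genome, and 2 windows held 52 peaks or more. The most bases covered on both strands in any window was 269. Among the 392 windows with at least 20 peaks, 2 had any base covered on both strands. Of the covered bases in the 392, 0.0145% were covered on both. The windows were chosen by peaks or covered bases of either strand, not for peaks on both strands. A window with peaks of a single strand can hold no such overlap, and the part of density in the overlap was not tested.

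Nuclear genes were compared by their coding strand as well. In nuclear protein-coding genes of known strand, opposite-strand coverage was 1.61% of the sum of coding-strand and opposite-strand bases. It was 0.299% in the 10606 of these genes that overlapped no other annotated gene. In the 13 mitochondrial protein genes it was 50.4%.

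Mitochondrial peaks had a higher median length than nuclear ones and were also more spread in length. Their median length was 219 bases (25th percentile 113.75, 75th percentile 365), against 153 bases for nuclear peaks (122 and 201). Plus-strand peaks had a median of 253.5 bases and minus-strand peaks one of 202.5. A length of at least 300 bases was reached by 34.6% of the mitochondrial and 7.18% of the nuclear peaks. Short peaks were more frequent as well. At most 100 bases were spanned by 18.2% of the plus-strand and 23.3% of the minus-strand mitochondrial peaks, against 10.1% of nuclear peaks. The shortest mitochondrial peak was the minus-strand one in TrnA, with 47 bases.

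**Figure D5:**
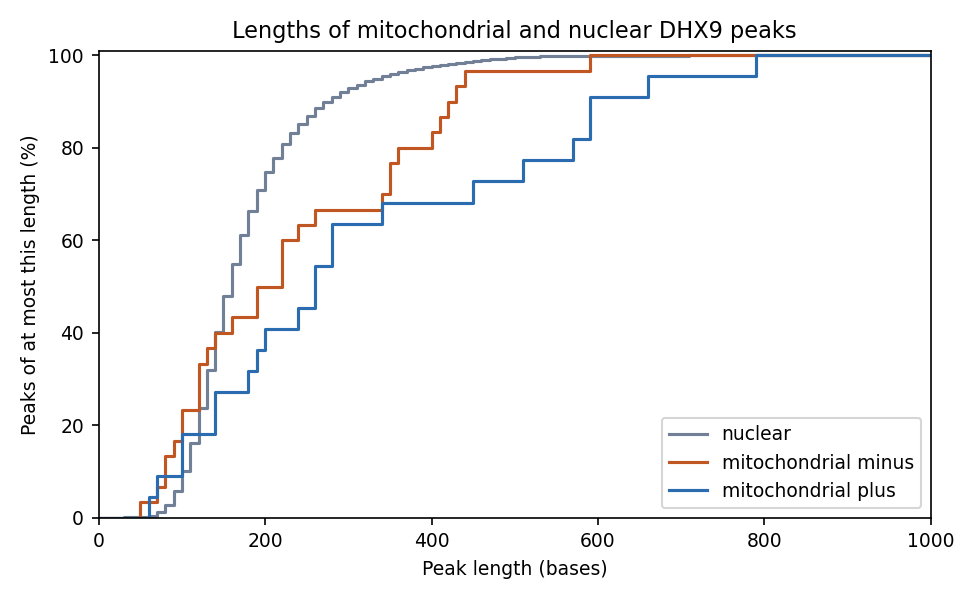
Cumulative share of peaks, in percent, against peak length in bases, for mitochondrial plus-strand, mitochondrial minus-strand and nuclear peaks. The medians are 253.5, 202.5 and 153 bases. At 300 bases both mitochondrial curves lie below the nuclear one, and at 100 bases both lie above it.

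RNAs from nuclear genes that serve the mitochondrial genome were looked up beside it. The lists were chosen with earlier results of these data known. Of 36 genes for factors of mitochondrial DNA and RNA, 35 were matched (Fastkd4 was not), and 6 contained the midpoint of a peak. This is 17.1% of the matched genes, beside 18.9% of all nuclear protein-coding genes. Dhx30, which encodes an RNA helicase of mitochondrial RNA granules, had 22 peaks. Ptcd3, a protein of the mitochondrial ribosome, had 7 peaks and Polrmt, the mitochondrial RNA polymerase, had 3. Pnpt1, Grsf1 and Polg had 1 each, and Supv3l1, Tfam and Lrpprc had 0. Of the 35 peaks, 34 lay on the gene's coding strand, and the exception, in Polg, also lay in another gene.

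Of 42 genes for nuclear-encoded subunits of the respiratory chain, 13 (31.0%) had a peak, beside the same 18.9%. Ndufv2 had 20 peaks and Ndufs3 had 12, and both encode complex I subunits. Atp5b, of the ATP synthase, had 9 peaks, Sdhb, of complex II, had 8, and Sdhc, also of complex II, had 7. In the 9 of these genes with a known strand, all 60 peaks lay on the coding strand. The other 4 genes held 16 peaks and had no strand in the table. Among them, Ndufs1 carried peaks on both strands, 1 on the plus and 5 on the minus strand, in a gene that overlaps the noncoding gene Ino80dos. Its plus-strand peak shared 8 bases with a minus-strand peak. The 13 mitochondrial-encoded subunits belong to complexes I, III, IV and V, and none to complex II. Of their genes, 7 had at least 1 base under a peak of each strand, whereas the nuclear genes were counted by peak midpoint.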

How the data were processed

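The members and gene lists were chosen with earlier results of these data known. The authors deposited 1 list of peak regions for DHX9 against IgG, which per the file itself came from PEAKachu, with chromosome, start, end and strand. Bowtie2 2.2.6 and the builds hg19 and mm10 stand in the submitters' processing notes, and positions were read as mm10, the mouse build. For the caller's settings and threshold, duplicates and reads with several matches, the steps taken are not given in the sources used here.

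Gene positions came from a RefSeq table of GRCm38.p6 (mm10), which gives no strand. The strands of the 37 mitochondrial genes are textbook knowledge. Those of 17491 of 21883 nuclear protein-coding genes came from a RefSeq promoter table of the same build. Bases were counted once per strand. A mitochondrial gene counted as covered with at least 1 base, and peaks were put in nuclear list genes by midpoint. All mitochondrial genes could be named, and of each nuclear list up to 5 members with the most peaks; Pnpt1, Grsf1, Polg and Ndufs1 complete counts, and Supv3l1, Tfam and Lrpprc were picked with their values known. The 2 pseudogenes were found by position after the empty stretch was seen. Interval counts were tested on simulated data. Python 3.11.15, pandas 2.3.3 and numpy 2.4.6 were used. Alternatives were longer peaks, merged peaks, trimmed peaks, and stricter rules for genes.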

Additional observations from a re-analysis of the deposited data

How the results depend on the processing

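When peaks shorter than the list median of 153 bases were left out, 34 mitochondrial peaks remained, plus-strand coverage of the control region was 86 bases, and the share covered on both strands was 37.1% on the mitochondrial genome and 0.00769% on nuclear chromosomes. Merging peaks of a strand within 50 bases gave 34 mitochondrial peaks and a mitochondrial share of 46.3%. Trimming 25 bases from both ends of each peak gave 146 plus-strand bases in the control region, 2800 bases covered on both strands, and shares of 33.5% (mitochondrial) and 0.0128% (nuclear). Genes covered on the coding strand numbered 20, or 12 when 50% of the span had to be covered and 13 by peak midpoint; on the opposite strand they numbered 22, 17 and 15. These changes follow from each rule keeping fewer or shorter peaks or genes, or joining them. Of the values computed under the alternatives, 11 moved and 13, bases per strand and on both strands among them, moved by a factor of at most 1.5 or stayed within a binomial interval. The factor applied to counts and bases, and the interval to the shares covered on both strands. The interval took single bases as independent trials, which they are not. These labels therefore measure no error and are not on a common scale. No paired analysis was possible because the list holds no value per library, and no replicate could be left out for the same reason. Without counts, depth and its limits are unknown.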

Other observations

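Peak borders were set against gene borders, since transfer RNAs mark the places where the precursors are cut. Of 104 borders of the mitochondrial peaks, 9 (8.65%) lay within 10 bases of the start or end of a gene. Of all bases outside the long stretch without peaks, 5.04% lay that close to a gene border. The 9 borders include base 1, the start of TrnF, where the reference opens the circle. Those at 4959, 5014, 5015, 5080, 5156 and 5327 are near neighbours, between ND2 and COX1. Whether peak borders follow the places of cutting was not tested.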
